A study of Mus musculus with 16 samples.

Results

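The step from double positive (DP) to CD8 single positive (SP8) thymocytes was described as the regions of open chromatin that were lost, won or kept between the peak lists of these stages. A DP peak that shared no base with any SP8 peak was called closed, an SP8 peak that shared no base with any DP peak was called gained, and a pair of peaks that shared at least 1 bp was called kept. Of the 107110 DP peaks, 29702 were closed (27.7%), and of the 104411 SP8 peaks, 27896 were gained (26.7%). The other 77408 DP and 76515 SP8 peaks formed 80381 kept pairs. The positions of the peaks in these 2 lists alone chose the members, so the closed and gained counts, and the heights that follow from them, describe the lists and were given no test. The lists of the double negative (DN) and CD4 single positive (SP4) stages, the place of a peak in the genome and its sequence played no part in the choice.

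Chromatin was profiled by ATAC-seq, in which a transposase cuts open DNA and inserts sequencing adapters, in thymocytes of wild type C57BL/6J mice 9 weeks old. DP cells were sorted as lineage negative CD4+ CD8+ cells and SP8 cells as lineage negative CD4- CD8+ CD3+ cells. Neither group carried a treatment or an engineered allele. Each stage was sorted from the same 4 mice over 2 experiments, and the authors pooled the reads of a stage before they called peaks. Each stage was therefore 1 list, no value had an error between mice, and no difference between the lists could be tested. The intervals given are 95% Wilson intervals, which cover counting error only, and the read depth behind a single peak is not part of the lists. The lists covered 33.4 Mb at DP, 34.5 Mb at SP8, 44.6 Mb at DN and 36 Mb at SP4, on the 19 autosomes only, so X-linked genes such as *Foxp3*, *Cd40lg* and *Cxcr3* had 0 peaks at each stage. Peak height is given as fold enrichment, the signal at the summit over the local background, and as percentile, the share of the same list with a lower fold enrichment.

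In the thymic cortex, DP cells rearrange the T cell receptor alpha locus and die unless their receptor binds self peptide on MHC. Cells selected on MHC class I shut off *Cd4*, switch off the recombinase and the pre-T cell programme, and move to the medulla as CD8+ cells that express the receptors needed to leave the thymus. The E proteins E2A and HEB, which bind E-boxes, are known to hold the DP programme, while RUNX3 is known to drive the CD8 lineage.

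The sequences at some of the highest summits are shown so that the letters behind the motif counts given further on can be seen. Each runs from 100 bp before to 100 bp after a summit, read from the + strand of mm10 (GRCm38) and written 5′ to 3′, and capitals mark every match to the 29 consensus motifs that were searched on both strands. The first 2 windows are the highest closed peaks outside protein-coding exons, and the other 2 are the next highest closed peaks, among those free of repeat bases and not yet shown, with a match to the E-box CAGGTG and to the ROR letters (TAGGTCA or TGGGTCA). The last 2 were chosen for these letters, after their values were seen.
Gm45062 intron, chr6:8312666-8312866: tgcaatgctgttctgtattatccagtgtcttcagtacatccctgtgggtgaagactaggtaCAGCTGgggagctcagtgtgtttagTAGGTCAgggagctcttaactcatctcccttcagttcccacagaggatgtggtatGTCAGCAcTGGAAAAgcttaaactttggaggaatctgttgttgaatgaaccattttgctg
Lrp12 intron, chr15:39927140-39927340: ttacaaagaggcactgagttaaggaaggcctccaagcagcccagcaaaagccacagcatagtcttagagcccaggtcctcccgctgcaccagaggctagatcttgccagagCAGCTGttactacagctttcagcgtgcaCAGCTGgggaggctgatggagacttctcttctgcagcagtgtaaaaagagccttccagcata
intergenic near Foxo1, chr3:52422898-52423098: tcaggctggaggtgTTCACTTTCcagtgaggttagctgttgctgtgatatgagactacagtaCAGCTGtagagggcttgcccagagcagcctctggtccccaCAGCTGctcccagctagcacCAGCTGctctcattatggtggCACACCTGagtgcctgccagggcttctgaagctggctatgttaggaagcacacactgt
intergenic near Fbn1, chr2:125298095-125298295: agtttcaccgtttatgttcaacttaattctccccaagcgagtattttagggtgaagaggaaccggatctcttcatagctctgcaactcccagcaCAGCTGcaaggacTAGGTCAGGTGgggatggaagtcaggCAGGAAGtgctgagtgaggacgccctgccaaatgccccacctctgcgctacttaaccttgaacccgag
The *Gm45062* window, which was not chosen by motif, held the E-box CAGCTG, ROR letters and a MAF and an NFAT match, and the *Lrp12* window held CAGCTG at 2 places. Over all DP windows, CAGCTG was found in 19.4%, CAGGTG in 25% and ROR letters in 4.53%. The fold enrichment at DP was 36.8 in the *Gm45062* window, 34.3 in the *Lrp12* window, 26.8 near *Foxo1* and 26.2 near *Fbn1*.

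For the gained peaks, the first 2 windows are again the highest outside protein-coding exons. The other 4 were chosen, after their values were seen, as the highest gained peaks free of repeat bases and not yet shown with a match to the NR4A letters AAAGGTCA, the RUNX letters TGTGGTT, the NF-kB motif and the IRF letters GAAANNGAA.
near Tnpo1, chr13:98937180-98937380: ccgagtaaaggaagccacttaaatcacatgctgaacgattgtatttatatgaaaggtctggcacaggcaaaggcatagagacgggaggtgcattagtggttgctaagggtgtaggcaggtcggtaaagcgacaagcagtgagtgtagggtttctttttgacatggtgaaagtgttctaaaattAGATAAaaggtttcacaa
Faf1 intron, chr4:109760614-109760814: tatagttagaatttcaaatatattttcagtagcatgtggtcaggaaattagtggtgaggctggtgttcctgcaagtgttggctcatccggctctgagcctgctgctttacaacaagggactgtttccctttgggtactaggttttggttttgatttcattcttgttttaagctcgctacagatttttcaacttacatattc
intergenic near Zfp260, chr7:30111078-30111278: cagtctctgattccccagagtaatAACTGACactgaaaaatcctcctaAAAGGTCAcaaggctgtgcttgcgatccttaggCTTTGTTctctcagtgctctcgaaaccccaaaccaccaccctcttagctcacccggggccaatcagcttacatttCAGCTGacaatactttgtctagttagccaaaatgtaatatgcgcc
Spata5 intron, chr3:37483942-37484142: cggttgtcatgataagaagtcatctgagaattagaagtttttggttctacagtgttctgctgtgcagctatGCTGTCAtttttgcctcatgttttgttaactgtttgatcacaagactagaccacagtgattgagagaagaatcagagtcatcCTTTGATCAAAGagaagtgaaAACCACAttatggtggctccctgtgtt
intergenic near Sp3, chr2:72838202-72838402: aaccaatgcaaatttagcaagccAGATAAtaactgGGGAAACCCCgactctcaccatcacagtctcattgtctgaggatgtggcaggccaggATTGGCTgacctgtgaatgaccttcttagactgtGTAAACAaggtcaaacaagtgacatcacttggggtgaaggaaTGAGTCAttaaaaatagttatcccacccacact
intergenic near Mterf1a, chr5:3887072-3887272: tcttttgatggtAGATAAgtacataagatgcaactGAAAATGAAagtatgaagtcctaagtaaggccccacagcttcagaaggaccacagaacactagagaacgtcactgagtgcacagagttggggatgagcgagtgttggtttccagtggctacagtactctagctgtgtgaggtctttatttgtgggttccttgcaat
The *Tnpo1* window held 1 match, to the GATA letters AGATAA (7.44% of all SP8 windows), and the *Faf1* window held none to the 29 motifs. The window near *Zfp260* held AAAGGTCA, found in 0.859% of all SP8 windows, and also the E-box CAGCTG (14.8%). The *Spata5* window held RUNX and TCF7/LEF1 matches, found in 9.58% and 9.32% of all SP8 windows. The window near *Sp3* held NF-kB and AP-1 matches (3.24% and 7.34% of all SP8 windows), and the window near *Mterf1a* an IRF match (6.43%). The fold enrichment at SP8 ran from 19.6 near *Zfp260* to 35 near *Tnpo1*.

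The closed or gained peak nearest to the transcription start site (TSS) of 5 genes of this step is shown as a set that was chosen by position and not by height or motif: the coreceptor genes *Cd4* and *Cd8a*, the recombinase gene *Rag1*, and the chemokine receptor genes *Ccr9* and *Ccr7*.
Cd4, closed, chr6:124888857-124889057: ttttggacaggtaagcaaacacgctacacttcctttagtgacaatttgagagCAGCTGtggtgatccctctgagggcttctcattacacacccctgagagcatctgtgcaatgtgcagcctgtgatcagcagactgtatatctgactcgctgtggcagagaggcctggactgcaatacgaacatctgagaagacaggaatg
Cd8a, closed, chr6:71371198-71371398: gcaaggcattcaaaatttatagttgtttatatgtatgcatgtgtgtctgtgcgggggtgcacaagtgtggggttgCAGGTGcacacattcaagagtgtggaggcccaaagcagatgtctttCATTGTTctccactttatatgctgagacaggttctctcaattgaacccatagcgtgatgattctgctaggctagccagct
Rag1, closed, chr2:101650609-101650809: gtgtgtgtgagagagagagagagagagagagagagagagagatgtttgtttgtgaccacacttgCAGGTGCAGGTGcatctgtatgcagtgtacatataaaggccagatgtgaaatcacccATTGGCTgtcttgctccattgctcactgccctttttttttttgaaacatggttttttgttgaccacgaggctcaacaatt
Ccr9, closed, chr9:123679288-123679488: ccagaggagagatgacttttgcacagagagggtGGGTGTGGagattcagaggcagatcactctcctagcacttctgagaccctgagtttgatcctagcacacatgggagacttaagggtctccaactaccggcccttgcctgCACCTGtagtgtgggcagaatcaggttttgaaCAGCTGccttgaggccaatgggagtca
Ccr7, gained, chr11:99153972-99154172: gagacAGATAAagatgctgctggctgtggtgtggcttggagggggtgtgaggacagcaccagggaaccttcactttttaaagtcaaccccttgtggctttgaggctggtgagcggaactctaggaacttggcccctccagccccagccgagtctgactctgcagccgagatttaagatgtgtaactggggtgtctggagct
The 4 closed windows each held an E-box, and the gained window in *Ccr7* held a match to the GATA letters alone. The fold enrichments were 4.49 (*Cd4*), 5.59 (*Cd8a*), 3.91 (*Rag1*), 3.18 (*Ccr9*) and 1.89 (*Ccr7*). The *Cd8a* peak stood at percentile 50.9 of its list and the other 4 below percentile 40, and of these 5 the *Cd8a* peak alone was also called at DN and none was called at SP4.

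Most closed and gained peaks were short and low. The median closed peak was 143 bp wide and stood at percentile 26.5 of the DP list, and the median gained peak was 152 bp wide and stood at percentile 26.3 of the SP8 list. The kept peaks were wider (272 bp at DP and 294 bp at SP8) and higher (percentiles 61.5 and 60.4). In the lowest decile of the DP list 52.5% of peaks were closed (51.5% to 53.4%), and in the highest decile 1.6% (1.38% to 1.85%). The gained share declined in the same way along the SP8 list, from 52.4% to 2.46%. Closed and gained calls were thus most frequent where a peak was near the limit of detection, and 171 closed and 257 gained peaks stood above percentile 90 of their lists.

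**Figure D1:**
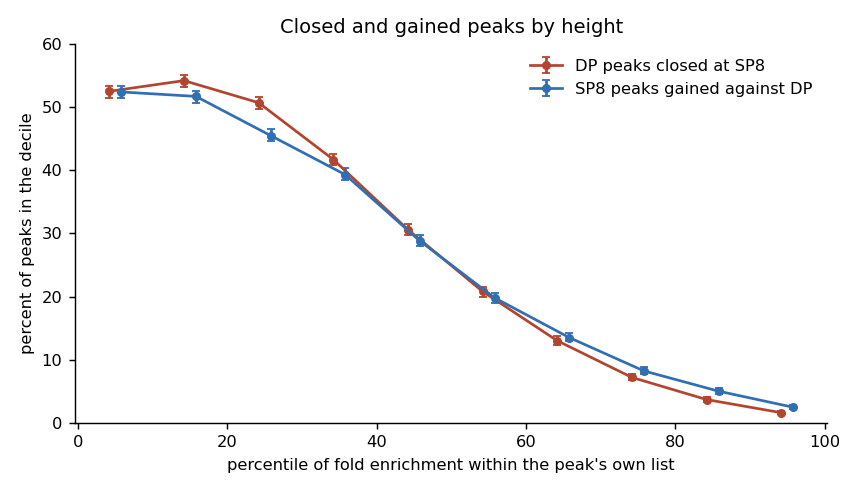
Share of DP peaks that were closed (red) and of SP8 peaks that were gained (blue), in percent, by deciles of the percentile of fold enrichment in the peak's own list; bars are 95% Wilson intervals. Both shares lie above 50% in the lowest 2 deciles and below 3% in the highest.

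Few members lay close to the limit of the overlap rule. Of the kept pairs, 91 shared 1 to 10 bp and 11 shared exactly 1 bp, against a median of 222 bp. Of the closed peaks, 43 lay within 10 bp of an SP8 peak and 1401 (4.72%) within 100 bp, and the median closed peak lay 2873 bp from the nearest SP8 peak. Of the gained peaks, 34 lay within 10 bp of a DP peak and 1353 (4.85%) within 100 bp, with a median of 2424 bp. The closed share varied between 25.7% and 30.8% over the 19 chromosomes and the gained share between 22.4% and 29.1%.

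The clearest difference between closed and gained peaks was in the stages that the choice had ignored. Of the closed peaks, 59.1% shared at least 1 bp with a DN peak (58.6% to 59.7%) and 29.8% with an SP4 peak (29.3% to 30.3%). Of the gained peaks, 44.4% shared a DN peak (43.9% to 45%) and 56.6% an SP4 peak (56% to 57.2%). Closed peaks were thus called at DN more often than gained peaks, and gained peaks at SP4 more often than closed peaks. Both differences held on 19 of 19 chromosomes. Kept DP peaks were called at DN in 93% and at SP4 in 92%. Over all DP peaks the shares were 83.6% at DN and 74.8% at SP4, and over all SP8 peaks 80.2% and 82.4%. Closed and gained peaks were thus called at both of these stages less often than all peaks of their own list. The DN list was the longest of the 4, so shares at DN and SP4 are best compared between classes.

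Split by pattern, 37.8% of closed peaks were called at DN and not at SP4, the course of a region that is open until DP and shut in both single positive stages. A further 21.3% were called at both, 8.49% at SP4 and not at DN, and 32.4% at neither. Among gained peaks, 27.5% were called at SP4 and not at DN, 29.1% at both, 15.3% at DN and not at SP4, and 28.1% at neither. The peaks of the neither pattern were low, with median percentiles of 19.3 (closed) and 17.1 (gained). Above percentile 75, the 860 closed peaks were called at DN in 81% and at SP4 in 50%, and the 1193 gained peaks were called at SP4 in 90.7%, at DN in 65% and at neither in 2.77%. Hence 33 gained peaks above percentile 75 were called in SP8 alone among the 4 stages, and 108 closed peaks above percentile 75 were called in DP alone. Of all DP peaks above percentile 75, 98.9% were called at DN, 97.6% at SP4 and 0.467% at neither. Of all SP8 peaks above percentile 75, 99.3% were called at SP4, 97.6% at DN and 0.149% at neither.

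**Figure D2:**
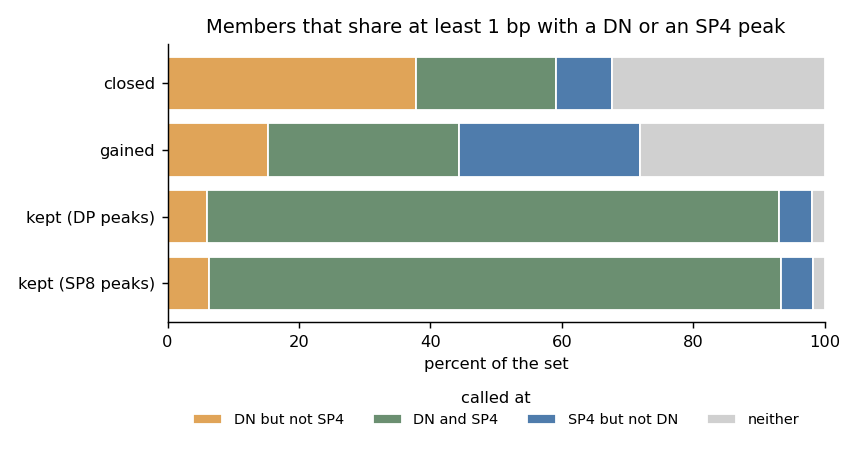
Closed, gained and kept peaks by whether they shared at least 1 bp with a DN peak, an SP4 peak, both or neither, in percent of each set. The DN but not SP4 part takes 37.8% of closed and 15.3% of gained peaks, and the SP4 but not DN part takes 8.49% of closed and 27.5% of gained peaks.

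Closed and gained peaks lay away from promoters. A promoter, taken as the 200 bp upstream of a TSS, was touched by 6.42% of closed (6.14% to 6.7%) and 4.38% of gained peaks (4.15% to 4.63%), against 21.8% of kept DP peaks. Read the other way, 10.1% of DP peaks at promoters were closed and 6.76% of SP8 peaks at promoters were gained, whereas in introns the shares were 32.2% and 32.9%. Introns held 47.3% of closed and 51.4% of gained peaks, and intergenic DNA 31.4% and 31.7%. The windows of closed peaks had a mean GC content of 52.5%, those of gained peaks 48.4% and those of kept DP peaks 53.8%. Soft-masked repeat bases took 15% of closed, 17.3% of gained and 11.6% of kept DP windows.

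E-boxes were found in a larger share of closed than of gained peaks. CAGCTG is a site of E2A and HEB, and CAGGTG is a site of E proteins and also of ZEB factors, which the letters do not tell apart. CAGCTG was found within 100 bp of the summit in 24.5% of closed peaks (24% to 25%) and 10.1% of gained peaks (9.76% to 10.5%), and CAGGTG in 33% and 14.1%. The log2 ratio of the closed over the gained share was 1.28 for CAGCTG and 1.23 for CAGGTG, and both were higher in closed peaks on 19 of 19 chromosomes. Among members above percentile 50 the difference was wider, with CAGGTG in 47.1% of closed and 11.4% of gained peaks. ROR letters were found in 6.61% of closed and 3.49% of gained peaks, a log2 ratio of 0.92. The ETS letters CAGGAAG, shared by a large family that includes ETS1, were found in 24.3% and 15%. Over all DP and all SP8 peaks the ETS shares were 22.6% and 19.8%, so the closed share lay near that of all DP peaks. Smaller differences of the same direction were seen for the T-box letters AGGTGTG (8.06% and 6.25%), the site of T-bet and EOMES, and for the PKNOX letters TGACAGC or TGACAGG (11.9% and 9.51%). Over all DP and all SP8 peaks the T-box shares were 6.29% and 5.74%, and the PKNOX shares 11% and 10.3%. AGGTGTG and CAGGTG share letters and can match at the same place.

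Other motifs were found in a larger share of gained peaks. The NR4A letters AAAGGTCA, the site of Nur77, which is induced by receptor signals, were found in 1.55% of gained and 0.444% of closed peaks, a log2 ratio of -1.80. RUNX letters were found in 11.3% of gained and 6.89% of closed peaks (log2 ratio -0.72), and above percentile 50 in 17.1% and 8.36%. NF-kB (4.1% and 2.2%), IRF (7.96% and 4.75%), NFAT (TGGAAAA, 3.59% and 2.21%), KLF (GGGTGTGG or GGGCGTGG, 4.68% and 3.15%) and AP-1 (TGANTCA, 9.53% and 6.49%) matches were likewise found in a larger share of gained than of closed peaks. The closed shares of NFAT and AP-1 matches lay near those of all DP peaks (2.35% and 6.41%). The gained share of KLF matches lay near that of all SP8 peaks (4.64%), so here the closed share was the lower one (4.05% of all DP peaks). NF-kB, IRF, RUNX, KLF and AP-1 matches were more frequent in gained peaks on 19 of 19 chromosomes and NFAT matches on 18. NR4A and ROR letters share GGTCA but begin differently, so that 1 place matches only one of them.

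The CTCF motif, bound by the factor that anchors chromatin loops, was found in 2.68% of gained and 0.821% of closed peaks and in 5.13% of kept DP peaks, so that both classes held fewer matches than the kept regions. GATA letters (AGATAA) were found in 9.41% of gained and 6.78% of closed peaks, against 7.44% of all SP8 and 6.69% of all DP peaks. TCF7/LEF1 letters (ATCAAAG or TTCAAAG) were found in 11.4% of gained and 8.66% of closed peaks, but in windows of 45% to 55% GC, which evens out the GC content of the classes, the shares were 10% and 10.1%. Ikaros letters (TTGGGAA) were found in 2.24% of closed and 2.23% of gained peaks, with overlapping intervals. Of the 29 motifs, 23 had closed and gained intervals that did not overlap, and the direction of 22 of them was the same in short windows, in distal members, in high members, in windows of even GC and in windows free of repeats. TCF7/LEF1 was the exception. A match describes letters and does not show that a factor was bound.

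**Figure D3:**
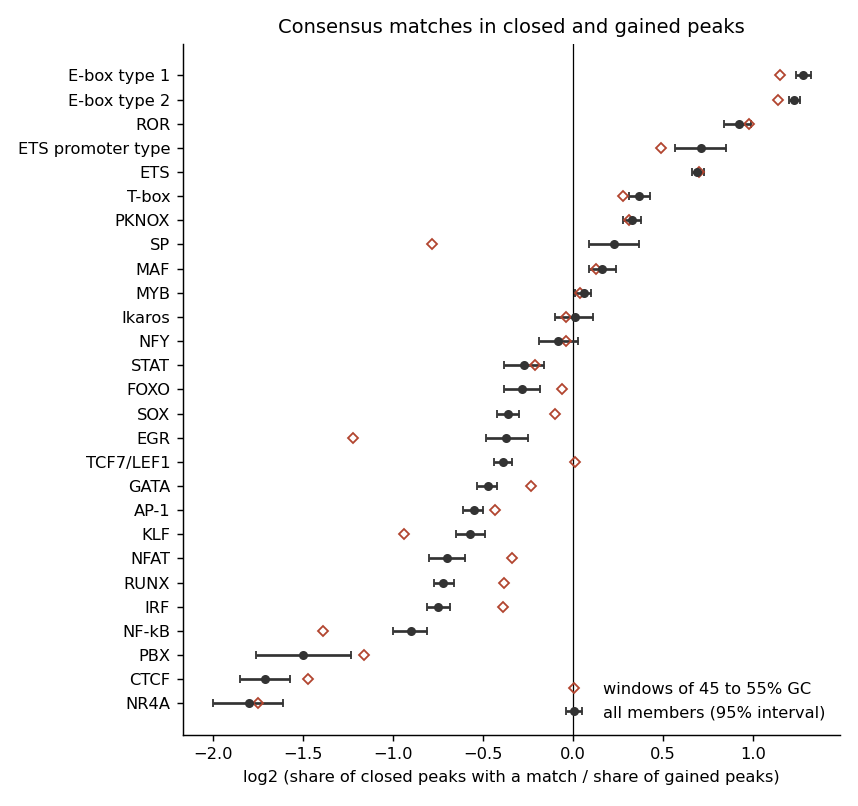
log2 of the share of closed peaks with a match over the share of gained peaks with a match, for 27 of the 29 motifs (NRF1 and YY1, in under 0.2% of either class, are not drawn); filled points with 95% intervals are all members and open diamonds are windows of 45% to 55% GC. E-box type 1 is CAGCTG and E-box type 2 is CAGGTG; both E-boxes and ROR lie to the right, and NR4A, CTCF, PBX and NF-kB farthest to the left, while SP and TCF7/LEF1 change side in the GC windows.

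The 10 highest closed peaks had DP fold enrichments of 26.8 to 36.8, and 6 lay in introns, 2 in exons and 2 between genes. The peak at chr6:8312625-8313024, in an intron of *Gm45062*, reached 36.8 at DP, 5.77 at DN and 4.5 at SP4. The *Tent2* peak, in an exon of a gene for a poly(A) polymerase, reached 36.5 at DP, 33.7 at DN and 4.27 at SP4. The *Lrp12* intron peak reached 34.3 at DP, 36.3 at DN and 4.98 at SP4. At these 3 sites the SP4 peak was thus far lower than the DP peak, and the SP8 list held none. In introns of *Chst10* (28), a carbohydrate sulfotransferase gene, and *Ust* (26.9), a uronyl sulfotransferase gene, the DP peak was called at no other stage. The peak that lay 69777 bp from *Foxo1*, a gene for a transcription factor that controls *Il7r*, reached 26.8 at DP and 8.87 at DN and was called in neither single positive stage. Of the 10 peaks, 7 were called at DN and 5 at SP4, against 98.9% and 97.6% of all DP peaks above percentile 75.

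The 10 highest gained peaks had SP8 fold enrichments of 30.2 to 35, and all 10 were called at SP4. Of all SP8 peaks above percentile 75, 99.3% were called at SP4. The highest, 10896 bp from *Tnpo1*, a nuclear import receptor gene, reached 35 at SP8, 37.5 at SP4 and was not called at DN. The *Dph6* intron peak reached 31.4 at SP8 and 35.3 at SP4 and was also absent from the DN list. The peak 15012 bp from *Art2b*, which encodes an ADP-ribosyltransferase of the T cell surface, reached 32.1 at SP8, 26.7 at SP4 and 4.21 at DN. The peak 30101 bp from *Bcl9*, a cofactor of beta-catenin, reached 30.2 at SP8, 25.1 at SP4 and 3.55 at DN. These 4 were high in both single positive stages and low or uncalled at DN. By contrast, the exon peak of *Zfp60* (33.6 at SP8) reached 14.2 at DN and 10.7 at SP4, and the peak near *Fam71f2* (31.2 at SP8) reached 24.2 at DN and 8.77 at SP4.

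Kept pairs were described by the change of their within-list percentile, the value that sorts them, and since each list was ranked on its own this change is centred near 0. Over the 80381 pairs, the median change from DP to SP8 was -0.17 points, with quartiles of -11.9 and 10.8. For 1 to 1 pairs with summits within 100 bp (61753 pairs), 5909 stood more than 25 points higher at SP8 (9.57%) and 6682 more than 25 points lower (10.8%). Promoters moved least, and 70% of 11680 kept promoter pairs lay within 10 points, against 42.8% of 24787 intron pairs. The pairs that stood lower at SP8 held CAGCTG in 30.6% and those that stood higher in 10.6%, a log2 ratio of 1.53, and CTCF matches in 1.27% and 5.91%, a log2 ratio of -2.22. The E-box and CTCF differences between closed and gained peaks were thus also seen among regions called at both stages. At DN the lower pairs had a median percentile of 70, close to their 68.9 at DP, whereas the higher pairs stood at 57.8 at DN, 27 at DP and 66.4 at SP8 (pairs called at DN). The choice of the pairs fixes the order of the DP and SP8 values in each group. Whether it also sets where the DN values lie was not tested.

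The pairs with the largest upward changes, which by this measure must start low in the DP list, lay in or near the genes that follow. The largest change, at the promoter of *Wfdc18*, went from 3.04 at DP to 30.7 at SP8, 91.2 points. An intron of *Rictor*, a subunit of the mTORC2 kinase complex, went from 3.04 to 22.5. A pair in an intron of another annotated gene went from 3.04 to 22.4. Its nearest protein-coding gene, 26395 bp away, was *Eed*, a subunit of the Polycomb complex PRC2. The intron pair of *Ahnak* went from 2.4 to 19.5. The largest downward change lay 2904 bp from *Tnni1*, from 17.4 to 2.44, -89.4 points. It was followed by an intron of *Aff1*, a gene for a transcription elongation factor, from 25.4 to 3.07, and by an exon of *Stam2*, from 27.7 to 3.27. The remaining downward pairs lay at or near *Ninj2*, *Hmgb1*, *Gm3646*, *Ubap1l*, *Csnk2a1*, *Nol4l* and *Atp11b*, with SP8 fold enrichments of 2.43 to 3.27.

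Some genes held many closed or many gained peaks, and such a count also depends on how many peaks a gene holds. Over all peaks, 27.7% of DP peaks were closed and 26.7% of SP8 peaks gained. In the gene body and 10 kb on either side, *Jazf1*, a zinc finger gene, held 34 closed of 65 DP peaks and 3 gained of 35 SP8 peaks. *Rptor*, the defining subunit of the mTORC1 kinase complex, held 32 closed of 66 and 8 gained of 44, and *Arid1b*, a subunit of the BAF chromatin remodelling complex, held 41 closed of 105 and 9 gained of 71. *Cdh23* (30 of 57 closed), *Nav2* (29 of 76), *Gse1* (45 of 117), *Snx29* (28 of 69) and *Gm45062* (32 of 54) also held many closed peaks. In the same order, these genes gained 7 of 35, 7 of 57, 20 of 92, 13 of 52 and 5 of 26 SP8 peaks. *Gm20388* (247 closed of 725) spans 4430 kb and *Fgfr2* as annotated spans 2960 kb, so their counts come from many genes. A run of 25 closed peaks with no other DP peak between them lay at chr15:63153140-63559276, with *Gsdmc* as the nearest protein-coding gene, and 18 of them were called at DN and 8 at SP4.

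On the gained side, *Bach2*, a gene for a repressor that keeps T cells quiescent, held 59 gained of 99 SP8 peaks and 4 closed of 44 DP peaks. *Foxp1*, another factor of T cell quiescence, held 61 gained of 151 and 19 closed of 111. *Inpp4b*, an inositol phosphatase gene, held 46 gained of 73 and 0 closed of 27, and *Fhit* 33 of 42 and 1 of 10. *Akap13* (34 of 71), *Maml2* (32 of 67), *Pde4d* (28 of 86) and *Gm20696* (33 of 116, which overlaps *Foxp1*) completed the 10 genes with most gained peaks, with *Gm20388* and *Fgfr2*. The gained share was 28.4% at *Gm20696* and 32.6% at *Pde4d*, against 26.7% of all SP8 peaks. Runs of 14 gained peaks lay in *Fhit* and, with *Peli1*, an E3 ubiquitin ligase gene, as the nearest gene, at chr11:21107045-21149822, where 1 was called at DN and 8 at SP4. The longest run, 17 gained peaks, lay among vomeronasal receptor genes (*Vmn2r96* and *Vmn2r97*), a family of near-identical copies in which the place of a read is uncertain. Of 20807 autosomal protein-coding genes, 10662 held a closed and 10091 a gained peak, 176 held at least 5 closed and 0 gained, and 138 at least 5 gained and 0 closed.

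Around the genes of maturation and egress the gained share was above, and the closed share below, that of all peaks, and the same held for the CD8 and CD4 lineage lists. A closed share below that of all DP peaks was not particular to these lists. It was as low for markers of thymic epithelium (17.6%) and of myeloid cells (18.4%), which are described further on. Peaks in or within 50 kb of the genes of each list were counted, neighbouring genes share peaks, and the shares are set against 27.7% closed and 26.7% gained over all peaks. For 8 recombination genes, 35 of 108 DP peaks were closed (32.4%, 24.3% to 41.7%) and 19 of 91 SP8 peaks gained (20.9%, 13.8% to 30.3%). For 20 genes of the DP programme, 30.9% were closed (27.6% to 34.4%) and 27.7% gained. The closed intervals of both these lists hold the share of all DP peaks. Within 10 kb of the DP programme genes, 30.1% were closed and 31.4% gained. For 25 genes of maturation and egress, 18.7% were closed (15.8% to 22%) and 36.5% gained (33.2% to 40%). For 20 genes of the CD8 and cytotoxic lineage, 19.9% were closed (16% to 24.5%) and 32.4% gained (28% to 37.1%), and for 15 genes of the CD4 lineage 20.5% (15.9% to 26%) and 31.9% (26.8% to 37.6%). The intervals of the CD8 and CD4 lists overlapped on both sides.

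The other lists gave a mixed picture. Genes of the response to positive selection had 23.2% closed and 29.4% gained, the T cell receptor complex 20.3% and 27.8%, thymic homing 24.8% and 30.2%, and MHC class I and interferon 19.3% and 26.7%. Cell cycle genes had 22.8% closed and 16.2% gained (12.1% to 21.4%), a gained share below that of all SP8 peaks. Markers of other cells that a sort could hold were counted in the same way. They gave 28.3% closed and 21.9% gained for B cells, 18.4% and 21.8% for myeloid cells, 25.3% and 29.7% for natural killer and innate lymphoid cells, 33.1% and 25.5% for gamma delta T cells, and 17.6% and 16.9% for thymic epithelium. The gained share was above the closed share in 9 of the 15 lists. A DP or SP8 summit within 500 bp of the annotated start was found for 4 of 8 B cell genes, 2 of 8 myeloid, 4 of 8 natural killer and innate lymphoid, 5 of 8 gamma delta and 3 of 8 thymic epithelial genes. Among these were *Ebf1* (11.8 at DP and 7.97 at SP8), *Itgam* (5.08 and 19.7), *Cebpa* (13.6 and 16.6) and *Aire* (22.7 and 22.4), while *Pax5*, *Ms4a1*, *Spi1*, *Csf1r*, *Mpo*, *Ncr1*, *Foxn1* and *Krt5* had none. The part of such cells in the results was not tested. *Pcna*, a gene of all dividing cells, had no start peak either, so this measure does not show that a gene was silent.

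**Figure D4:**
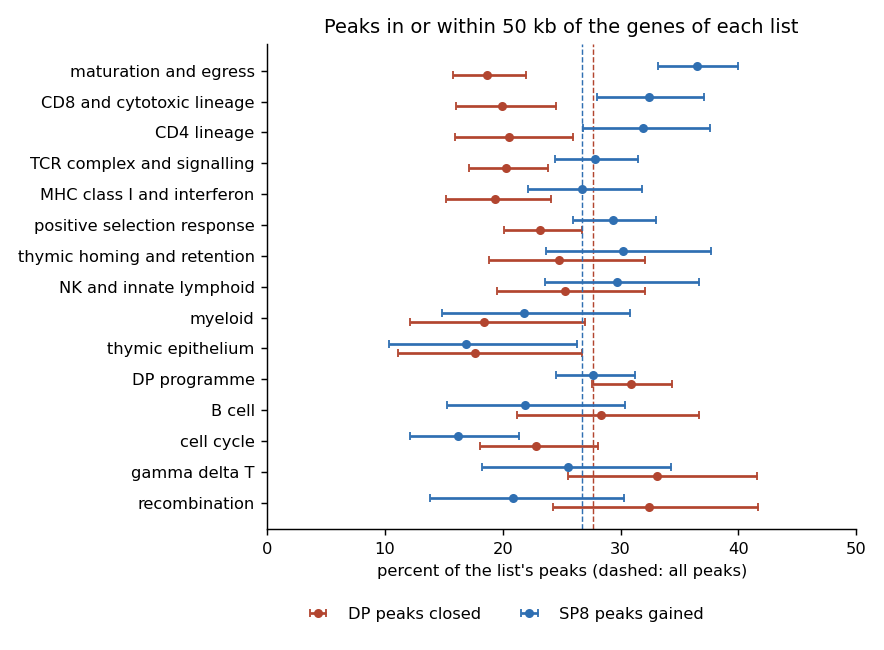
Share of the DP peaks that were closed (red) and of the SP8 peaks that were gained (blue), in percent, in or within 50 kb of the genes of 15 lists, with 95% Wilson intervals; dashed lines are the shares over all peaks. The lists are ordered by the gained minus the closed share, from maturation and egress (36.5% and 18.7%) to recombination (20.9% and 32.4%).

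Among the genes of the immature programme, the start of *Ptcra*, which encodes the pre-T cell receptor alpha chain, stood far lower at SP8. Its peak stood at 19.9 in DN and 18.2 in DP cells against 4.23 in SP4 and 3.49 in SP8 cells, a change of -77.2 percentile points between DP and SP8. *Rag1* stood at 13.3, 15.9, 8.19 and 7.02 at DN, DP, SP4 and SP8, and *Rag2* at 15.5, 17.3, 6.92 and 9.32, so the recombinase starts kept a lower peak. The start of *Dntt*, the template-independent polymerase of V(D)J joining, had a peak of 5.47 at DN and none at SP4. Its DP peak of 2.99, which was closed, was low, at percentile 7.02 of the DP list. Around *Dntt* 11 of 31 DP peaks were closed and 3 of 23 SP8 peaks gained, while *Rag1* held 5 of 24 closed and 5 of 24 gained. *Lig4*, the ligase of end joining, held 6 closed of 9. At *Rag1* a kept pair 22676 bp upstream of the start went from 11.8 at DP to 5.24 at SP8 but stood at 27.5 at SP4, and another 12270 bp downstream went from 7.32 to 16.1.

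Among other genes of the DP programme, *Themis*, a modulator of receptor signals during selection, held 28 closed of 45 DP peaks, *Tcf12*, which encodes HEB, 21 of 48, *Arpp21* 20 of 41 and *Ets2* 12 of 28. *Themis* also gained 16 of 34 SP8 peaks, so it both lost and won many. *Ets2* gained 1 of 17, and *Tcf12* and *Arpp21* 5 each, of 33 and 26. *Lef1* and *Bcl11b*, transcription factor genes that stay in use in mature T cells, went the other way, with 26 gained of 66 and 26 of 68.

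The coreceptor genes *Cd4* and *Cd8a* each lost a high peak. At *Cd4* a closed peak 8655 bp downstream of the start, in an exon, reached 18.5 at DN and 18 at DP and was called at neither SP4 nor SP8. At *Cd8a* a closed peak 36495 bp downstream of the start reached 10.4 at DN, 21.9 at DP and 3.79 at SP4. Its nearest gene was *Rmnd5a*, the neighbour of *Cd8a*. In an intron of *Cd4*, 2129 bp from the start, a kept pair went from 5 at DP to 17.4 at SP8, with 8.89 at DN and 3.84 at SP4. An intron of *Cd4* is known to hold the silencer that keeps the gene off in CD8 cells, and whether this interval is that element was not tested. The *Cd4* start itself stood at 4.58, 3.47, 3.56 and 2.86 at DN, DP, SP4 and SP8.

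Upstream of *Cd8a*, in the interval towards *Cd8b1* where several CD8 enhancers are known, a kept pair 15712 bp from the start went from 4.8 at DP to 13.8 at SP8 and stood at 3.62 at SP4. A second pair 19537 bp upstream went from 13.4 to 5.99. The *Cd8a* start stood at 8.89, 6.17, 3.74 and 10.2 and the *Cd8b1* start at 22.1, 15.1, 16.7 and 21.5 at DN, DP, SP4 and SP8. In all, *Cd8a* held 7 closed of 28 and 9 gained of 31, *Cd8b1* 5 of 30 and 8 of 35, and *Cd4* 5 of 24 and 5 of 25.

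**Figure D5:**
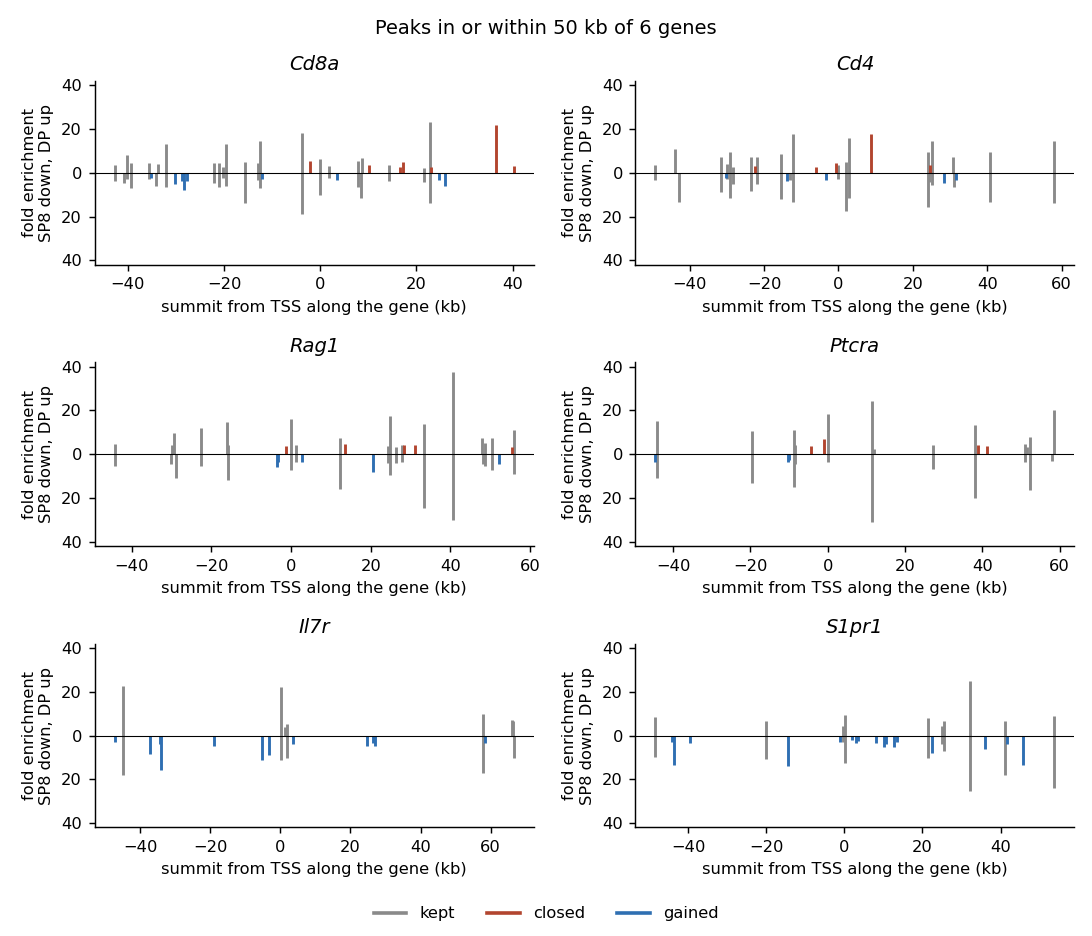
Peaks in or within 50 kb of 6 genes by the distance of the summit from the gene's start (kb, positive downstream), with fold enrichment at DP drawn upwards and at SP8 downwards; closed peaks are red, gained blue and kept grey. *Cd4* and *Cd8a* each show 1 high closed peak (18 and 21.9), *Ptcra* a kept start that is higher at DP (18.2) than at SP8 (3.49), and *Il7r* and *S1pr1* only kept and gained peaks.

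Of the lineage factors, *Runx3* held 24 gained of 53 SP8 peaks and 3 closed of 30 DP peaks, and 8 of the 24 were called at SP4. The highest lay 101001 bp downstream of the start (24.7 at SP8, 21.9 at SP4 and 17.9 at DN), near *Clic4*, and another lay 11785 bp upstream (16.5 at SP8, 15.5 at SP4 and 5.32 at DN). *Eomes*, a T-box factor gene of memory CD8 cells, held 8 gained of 17, among them a peak 45793 bp upstream that reached 25.3 at SP8 and 22.3 at SP4 and was not called at DN. *Zbtb7b*, which encodes the CD4 lineage factor ThPOK, held 3 closed of 20 and 3 gained of 20. A kept pair 14863 bp from its start went from 11.1 at DP to 5.3 at SP8 and was not called at SP4. The CD4 lineage list also included *Icos* (13 gained of 21, 0 closed of 8), *Cd28* (14 of 28, 2 of 16) and *Tox* (20 of 40, 12 of 34), so peaks near these genes were gained in the CD8 branch too.

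Of the 20 genes of the CD8 and cytotoxic list, 6 had a start peak at SP8 that DP cells lacked. A peak within 500 bp of the start was gained at *Gzmb* (16.8), *Nkg7* (13.9), *Gzmk* (4.58) and *Itgae* (5.54), genes for granzymes, a granule protein and the integrin that binds E-cadherin, and none of the 4 had a start peak at SP4. All 4 had one at DN, of 10.2, 7.29, 4.74 and 3.81. *Xcl1* (14 at SP8, 9.06 at SP4 and 10.7 at DN) and *Ccl5* (6.65, 7.75 and 4.01), both chemokine genes, also gained a start peak but shared it with SP4. *Ifng* and *Klrd1* had start peaks that were kept, from 9.12 to 25.8 and from 4.44 to 26.1, with 31.5 and 27.6 at DN. All 8 of these starts were thus called at both DN and SP8. Around these genes *Ifng* held 9 gained of 19 and 0 closed of 10, *Gzmb* 6 of 10 and 0 of 6, *Ccl5* 6 of 11 and 0 of 6, *Itgae* 12 of 25 and 4 of 19, *Nkg7* 4 of 13 and 2 of 11, and *Gzmk* 3 of 14 and 4 of 14. Some other genes of the list had a larger closed than gained share. *Gzma* held 2 gained of 11 and 7 closed of 17, *Gzmm* 1 of 16 and 4 of 20, and *Patz1* 3 of 23 and 7 of 29.

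Among the genes of maturation and egress, *S1pr1*, the receptor that leads mature cells out of the thymus, held 17 gained of 27 SP8 peaks and 0 closed of 10 DP peaks. Its highest gained peaks lay 14307 bp upstream (13.8), 45666 bp downstream (13.5) and 43496 bp upstream (13.4) of the start, and 13 of the 17 were called at SP4. *Il7r*, the receptor for the survival cytokine IL-7, held 12 gained of 17 and 0 closed of 7, with peaks 34183 bp (15.6) and 5210 bp (11.2) upstream, while its start stood at 17.5, 22.3, 14.5 and 11.3 at DN, DP, SP4 and SP8. The start of *Il7r* was hence highest at DP, and the gained sites lay elsewhere. *Bcl2*, a survival gene, held 24 gained of 51, *Foxo1* 22 of 51, *Foxp1* 62 of 155, *Ccr7* 15 of 40 and *Klf2* 10 of 27. Of these, 13 of the 15 *Ccr7* peaks and 10 of the 24 *Bcl2* peaks were called at SP4. Not all genes of the list went this way. *Klf3* held 5 gained of 22 and 12 closed of 30, and *Ly6a* 6 of 19 and 9 of 20. *Klf13* held 8 gained of 36 and 10 closed of 39, and *Ifngr1* 4 of 21 and 6 of 24.

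The largest changes at *Ccr7*, the receptor for entry to the medulla, and at *Klf2*, a factor that controls *S1pr1*, were in kept pairs. A pair 49104 bp upstream of *Ccr7* went from 3.67 at DP to 21.8 at SP8, with 25.9 at SP4 and 5.8 at DN. A pair 24905 bp downstream of the *Klf2* start went from 3.86 to 17.9, with 15.1 at SP4 and 5.48 at DN. A *Bcl2* pair 107086 bp downstream went from 5.61 to 17.1, with 18.9 at SP4 and 19.9 at DN, and another 66741 bp downstream went from 8.89 to 24.1, with 26.4 at SP4 and 11.6 at DN. These sites were high in both single positive stages, and the first *Bcl2* site was as high at DN. *Ms4a4b*, a membrane protein gene of mature T cells, held 20 gained of 34 and 0 closed of 14, and its start was called at SP4 (11.9) and SP8 (12.2) alone. *Ccr9*, the receptor for the thymic chemokine CCL25, held 11 closed of 35 and 8 gained of 30, with a gained peak of 17.7 that reached 4.74 at SP4.

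*Bach2* had the most gained peaks of any listed gene, 63 of 109 within 50 kb, of which 43 were called at SP4. *Prkcq*, a protein kinase C gene of the receptor pathway, held 20 gained of 49 and 4 closed of 33, and *Ptprc*, which encodes CD45, 21 of 45 and 10 of 34. *Gpr183*, an oxysterol receptor gene, held 20 gained of 40, and *B2m*, the light chain of MHC class I, 9 of 24 with 0 closed of 18. A start peak was gained at *Cd2* (5.41 at SP8, 5.64 at SP4), *Tnfrsf4* (4.36 and 15.6), *Ifit3* (7.93 and 3.08) and *Isg15* (6.24 and 6.04). The interferon-induced genes *Mx1*, *Ifit1* and *Ifi27l2a* had kept starts that went from 4.95 to 15.9, from 9.84 to 21.4 and from 8.53 to 20.8. In the cell cycle list *Mki67* held 9 closed of 23 and 2 gained of 17, *Rrm2* 9 of 21 and 3 of 14, and *E2f1* 5 of 16 and 0 of 12.

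Over all 20807 genes, 11672 starts had a DP summit within 500 bp, 11243 an SP8 summit and 10743 both. The start peak was closed at 706 genes and gained at 278. Of the closed starts, 81.2% were called at DN (78.1% to 83.9%) and 27.1% at SP4, and of the gained starts 61.5% were called at DN and 61.9% at SP4 (56% to 67.4%). The highest closed start was that of *Zbtb10*, a zinc finger gene (23.1 at DN and 29.6 at DP, called at neither single positive stage), followed by *Bpifc* (22.1). The *Sla* start, of an adaptor that lowers T cell receptor levels in DP cells, was closed as well (15.6 at DP, 8.87 at DN and 4.97 at SP4). The highest gained start was that of *Ildr1* (25.6 at SP8, 27.7 at SP4 and 9.09 at DN). Those of *Tank*, a regulator of NF-kB signalling (21.5), and *Gpr15*, a homing receptor (17.8), were high at SP4 as well (17.5 and 18.9).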

How the data were processed

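ATAC-seq libraries of DN, DP, SP4 and SP8 thymocytes, 16 in all, came from 4 mice per stage. Reads had been aligned to mm10 by the authors (BWA), freed of duplicates (Picard), limited to uniquely mapped pairs and down-sampled to the median depth of the libraries. The paper gives a range of pooled depths, so the stages were not at exactly the same depth. They then combined the 4 libraries of a stage and ran MACS2 once on each pool, with an FDR of 5%. Pooling leaves no replicate error, and a region without a peak may hold signal under the threshold. The deposited lists give each peak's interval and summit, a score, the summit's fold enrichment (its ratio to local background), and the −log10 q-value, all as the authors' caller wrote them. The score was not used.

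Stages were grouped by the sample labels. Intervals were read and compared as BED coordinates and are printed 1-based. The comparison was run in Python 3.11.15 with numpy 2.4.6 and pandas 2.3.3, and sequence was read with pysam 0.24.0 from GRCm38. Genes came from GENCODE M21, and TSSs and exons from GENCODE M21 and RefSeq together (263499 transcripts). Promoters were taken as 200 bp upstream of each TSS. A gene start was the 5′ end of a protein-coding gene, with a summit within 500 bp. Motifs were exact consensus matches on both strands within 100 bp of a summit, which miss degenerate sites.

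The peaks and genes named were the 10 highest closed and gained peaks, the 10 largest upward and downward changes among 1 to 1 pairs, the 10 genes with most closed and with most gained peaks, and genes of 15 lists, always those of the coreceptors, recombination, lineage choice and egress. Gene starts outside the lists, runs of peaks and the sequences chosen by motif were picked after their values were seen. The members, the gene lists and the motifs were chosen with earlier results of these data known. No test was made. Shares have 95% Wilson intervals, whose formula was checked against scipy 1.17.1, and figures were drawn with matplotlib 3.10.9. Windows limited by GC content, by repeats or to introns and intergenic DNA, and a wider gene start, were added after the values were seen.

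The scripts were tested on simulated data, in which 5000 of 5000 new peaks were called gained, 0 moved peaks were called gained, and 1160 of 1160 planted motif matches were found. Chromosomes X and Y hold no peak in the lists. Reads per region, footprints and clusters were not analysed here, and the values of some named genes are not reported here.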

Additional observations from a re-analysis of the deposited data

How the results depend on the processing

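The numbers of closed and gained peaks stayed within 1.5 times their reported values when a gap of up to 100 bp counted as shared, when at least 50% of a peak had to be covered, at a q-value of at most 0.001 and in lists cut to 100000 peaks. Kept pairs numbered 67463 with summits within 100 bp and 79055 at that q-value. The gained share was above the closed share in 9 of 15 gene lists also within 10 kb and with the 100 bp gap, but within 10 kb the DP programme turned (gained minus closed share 1.3 points) and myeloid genes did too (-4.0 points). The median change of kept pairs was -0.01 points by q-value. Closed peaks were called at DN in 55.8% and at SP4 in 25.4% with 50% cover, in 39.1% and 22.3% against the 100000 highest DN and SP4 peaks, and in 79.4% and 45.4% above percentile 50. Gained peaks were called at SP4 in 52%, 48.6% and 83.8%, and at DN in 40.1%, 25.7% and 59%, under the same settings. In introns and intergenic DNA, 57.4% of closed and 43.7% of gained peaks were called at DN. Closed peaks stayed above gained peaks at DN and below them at SP4 under each of these. The closed and gained shares at promoters were 12.6% and 10.6% with 1000 bp promoters and 3.94% and 2.34% at coding genes. Among the motifs, TCF7/LEF1 turned direction in windows of 45% to 55% GC (log2 ratio 0.01), and the cause was not tested. Of the other single motif and gene list values, 93 moved and 81 did not. A motif value moved if it left its interval, and a gene list value if its direction turned. Of the main results, 19 values moved and 17 did not, judged by the interval or, for counts, by the limit of 1.5 times. No paired analysis was possible because the mice were pooled before peaks were called. A region called at 1 stage alone may hold signal below the threshold at the others.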
